A study of Drosophila melanogaster with 9 samples.

Results

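A set of 10 genes that control entry into and passage through the meiotic divisions of *Drosophila melanogaster* spermatocytes were followed in RNA-seq libraries from testes. They were *twe*, *stg*, *bol*, *Cdk1*, *CycA*, *CycB*, *CycB3*, *rux*, *polo* and *fzy*, chosen by FlyBase symbol for their role by a rule that uses no measured value, though with earlier results of these data known, and all 10 were found among the 17575 genes of the count table. Total RNA was taken from dissected testes of adults 1 to 3 days old, ribosomal RNA was removed, and strand-specific libraries were sequenced. The 3 genotypes were a control, *U2af38* RNAi and *SRPK* RNAi, with 3 biological replicates of each. In both knockdowns *bam-GAL4* drove the hairpin, so that the target was depleted in late spermatogonia and spermatocytes and not in the somatic cells of the testis. The control was the driver stock itself or siblings of the knockdown males, and each sample pooled the testes of many males. The study tried a pair of RNAi lines per gene and kept one of them, and the labels do not say which. *U2af38* encodes the small subunit of the factor that recognises the end of an intron, and *SRPK* encodes a kinase that phosphorylates the RS domains of splicing proteins.

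Primary spermatocytes of the fly spend days in an extended G2 phase, during which they grow and transcribe most of what the meiotic divisions and sperm formation will need. Cdk1 bound to A-type and B-type cyclins triggers both divisions, once a phosphatase of the Cdc25 family has removed the inhibitory phosphates that the Wee1 and Myt1 kinases place on it. In the fly this phosphatase is String in mitotic cells and Twine in meiotic cells, and the RNA-binding protein Boule is needed for *twe* mRNA to be translated. Roughex inhibits Cdk1 bound to Cyclin A, Polo kinase acts in spindle assembly and division, and Fizzy, the Cdc20 of the fly, directs the anaphase-promoting complex to cyclins and securin.

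The members lie on chromosomes 2, 3 and X, and their coordinates are given on the dm6 build as in the count table. The Cdc25 gene *twe* (FBgn0002673) spans bases 16259414 to 16261877 of chromosome arm 2L, and *stg* (FBgn0003525) spans 29251826 to 29255800 of 3R. The translational regulator *bol* (FBgn0011206) is the longest member, with 36777 bp from 9097629 to 9134405 of 3L, 14 distinct introns in 9 isoforms and a longest intron of 16409 bp. *Cdk1* (FBgn0004106) lies on 2L from 10384739 to 10386262. Of the cyclins, *CycA* (FBgn0000404) lies on 3L from 11826719 to 11833578, *CycB* (FBgn0000405) on 2R from 22803521 to 22806948 and *CycB3* (FBgn0015625) on 3R from 24867934 to 24870816. *CycB3* is the only member without an annotated intron. The X-linked *rux* (FBgn0003302) spans 6035753 to 6037800, *polo* (FBgn0003124) spans 20309654 to 20313466 of 3L, and *fzy* (FBgn0001086) spans 16310956 to 16313097 of 2L, 49078 bp from *twe*. No member shares exon bases with another gene on its own strand. An exon of *twe* overlaps *EndoGI* on the other strand by 98 bp and an exon of *fzy* overlaps *cact* by 62 bp, where the strand-specific counting keeps the partners apart. The counts take in all exonic reads of a gene, so that they do not separate spliced from unspliced RNA or one isoform from another.

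Between 18497748 and 30002574 fragments were counted per library, and the members received from 23 (*stg*) to 32665 (*bol*) of them. The targeted genes followed the labels: *U2af38* was at 37.5, 42.3 and 41.1 CPM (fragments per 1000000 counted) in control, against 2.46, 4.38 and 3.10 with its own hairpin, and *SRPK* had 274, 248 and 281 CPM in control, against 69.0, 64.5 and 68.1 with its own. *SRPK* was also called higher in *U2af38* RNAi, at 611, 589 and 658 CPM (2.31-fold, adjusted p = 2.92e-09), while *U2af38* in *SRPK* RNAi was at 53.5, 50.3 and 47.5 CPM (adjusted p = 0.0594). The testis markers were detected in all genotypes. The 9 spermatid markers summed to 8416 to 8857 CPM in control, 2526 to 2638 after *U2af38* knockdown and 7424 to 8373 after *SRPK* knockdown. The 8 spermatocyte markers summed in the same order to 3408 to 4612, 778.0 to 985 and 2297 to 3641 CPM. This sum is weighted to *dj*, at 1918 CPM in control and 311 after *U2af38* knockdown (group means), and to *Mst87F*, at 552, 1403 and 569 CPM in control. Three-way agreement among the markers was lacking, as *fzo*, *kmg* and *sowah* fell less than the others after *U2af38* knockdown. Their log2 fold changes were -0.42, -0.60 and -0.20, the last not called. Transcripts of the accessory gland, an organ joined to the testis, summed over 3 genes to between 9.42 and 1096 CPM, with 5 libraries above 50 CPM and at least one low and one high library in every genotype. All CPM values here were scaled with TMM, which sets the libraries level on the bulk of genes, and a gene was called when edgeR's quasi-likelihood fit gave it an adjusted p under 0.05. Nothing in the labels says whether the replicates came from separate crosses, so that the p-values measure the spread between these samples. In bulk testis RNA, fewer cells of a type and less RNA per cell cannot be told apart.

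*U2af38* RNAi was compared with control to ask how the members' transcripts stood when this splicing factor was depleted. The members moved in both directions. The transcripts of the mitotic Cdc25 *stg*, the cyclins *CycA* and *CycB*, *polo* and *fzy* were 1.90-fold to 4.47-fold higher, those of the meiotic pair *twe* and *bol* together with *CycB3* and *rux* were lower, and *Cdk1* did not pass the test. Thus 9 of the 10 members were called, 5 higher and 4 lower, and the same 9 had libraries that did not overlap control. Most genes did so in this comparison: of the 14941 genes tested 82.2% were called, 44.7% higher and 37.5% lower, and 84.7% had libraries that did not overlap, so the number of members called is near the background. The median absolute log2 fold change of the members was 0.98, beside 0.99 over all genes tested.

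**Figure D1:**
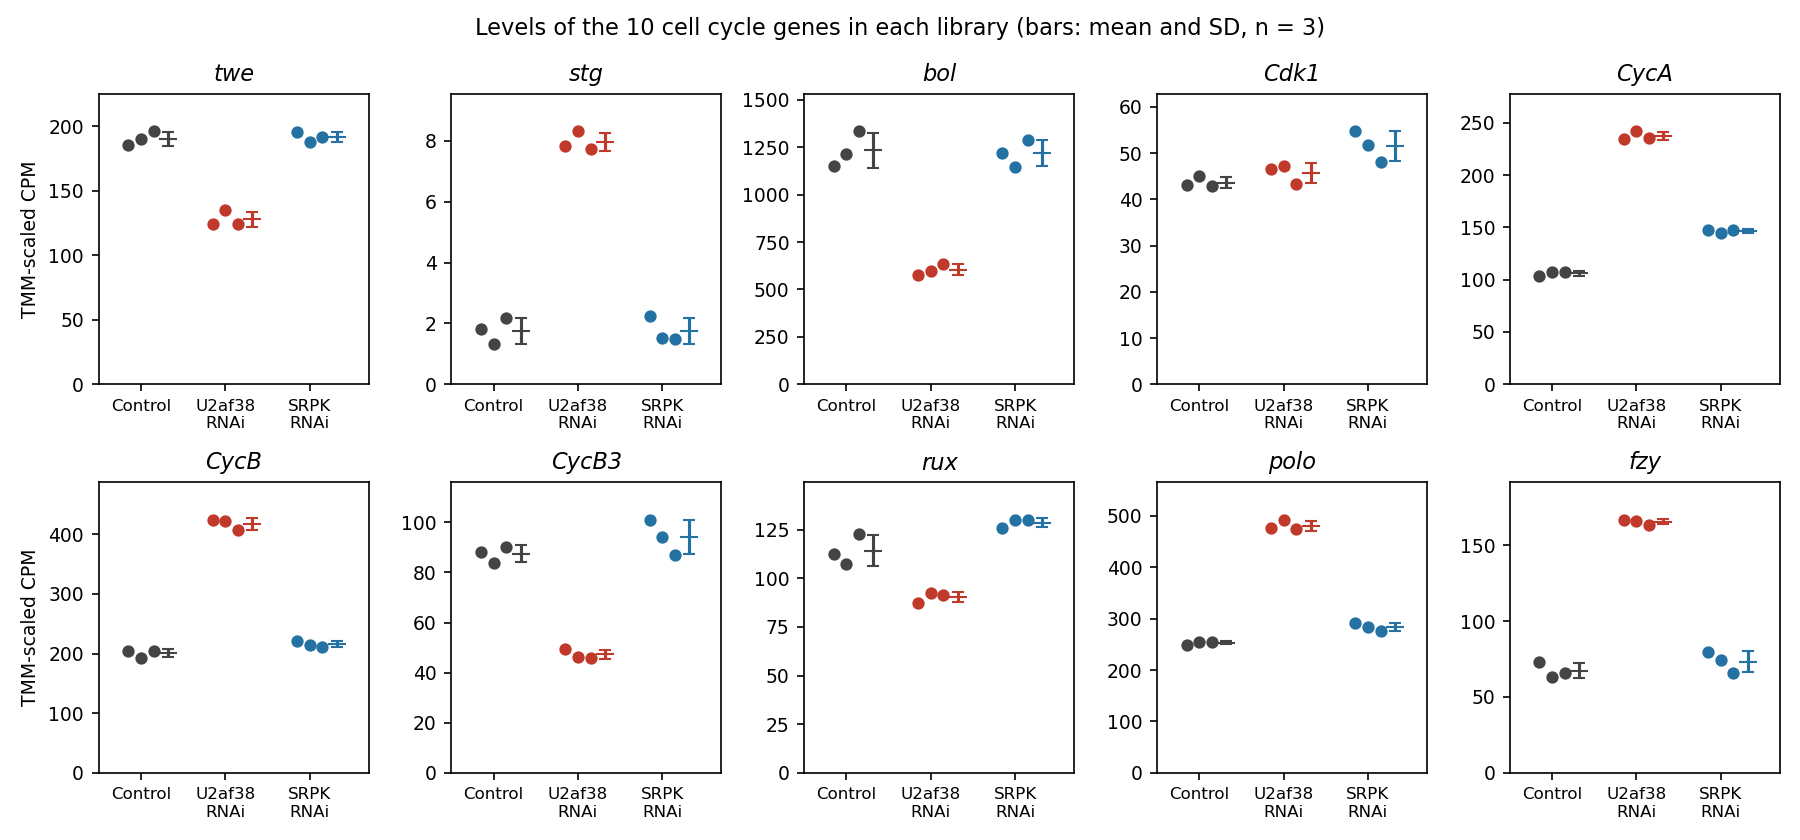
TMM-scaled CPM (vertical axis, from 0, its range set for each gene) of the 10 genes in the 3 libraries of control, *U2af38* RNAi and *SRPK* RNAi. Each point is a library and the bars give the mean and SD (n = 3). In 9 of the 10 panels, all but *Cdk1*, the *U2af38* RNAi points lie apart from the control points.

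Transcripts of the Cdc25 phosphatases moved in opposite directions. *twe*, whose product activates Cdk1 for the meiotic divisions, measured 185, 190.1 and 196 CPM in control and dropped to 125, 135 and 124 CPM in *U2af38* RNAi. All 3 knockdown libraries lay below all 3 control libraries, and the fitted level was 1.49-fold lower (log2 fold change -0.58 ± 0.05 SE, adjusted p = 3.03e-07). *stg*, the mitotic relative, measured 1.80, 1.31 and 2.17 CPM in control but 7.84, 8.31 and 7.74 CPM in *U2af38* RNAi. This was a 4.47-fold rise (log2 fold change 2.16 ± 0.22 SE, adjusted p = 1.2e-06) of a transcript that in control was near the lower end of those measured, at percentile 20.8 of all tested genes by level per exon length, while *twe* was at percentile 87.6. *stg* remained far below *twe* in every library of every genotype.

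*bol*, the RNA-binding protein gene required for Twine synthesis, was the most abundant member by CPM. Its control libraries stood at 1153, 1217 and 1334 CPM and its *U2af38* RNAi libraries at 576, 600.2 and 634 CPM. The groups did not overlap, and the level fell by 1.03 on the log2 scale (SE 0.07, 2.05-fold lower, adjusted p = 4.24e-08). *bol* and *twe* were thus both lower in the same libraries, *bol* by more.

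Of the kinase and its partners, *Cdk1* itself measured 43.0, 45.0 and 42.9 CPM in control beside 46.6, 47.2 and 43.2 CPM in *U2af38* RNAi, which overlapped (log2 fold change 0.07 ± 0.07 SE, adjusted p = 0.359). *CycA*, the cyclin that Roughex holds in check, rose from 103, 108 and 108 CPM to 234, 242 and 236. The difference, 2.23-fold (log2 fold change 1.16 ± 0.04 SE, adjusted p = 1.21e-10), had the smallest standard error among the members. *CycB*, whose protein appears only as spermatocytes reach the divisions, rose from 205, 193 and 204 CPM to 424, 422 and 407 (2.08-fold, log2 fold change 1.06 ± 0.05 SE, adjusted p = 9.23e-10). *CycB3*, the third mitotic cyclin type, went the other way, from 88.4, 83.6 and 90.4 CPM to 49.5, 46.4 and 46.0 (1.85-fold lower, log2 fold change -0.89 ± 0.06 SE, adjusted p = 3.81e-08). The intronless member was therefore among those that were lower. *rux*, the Cdk1 inhibitor, measured 112, 108 and 123 CPM in control against 87.3, 92.4 and 91.2 CPM in the knockdown, a smaller fall of 0.34 on the log2 scale (SE 0.05, adjusted p = 7.86e-05).

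The members that act in spindle assembly and anaphase were both higher. *polo* rose from 249, 254 and 255 CPM to 476, 492 and 475 (1.90-fold, log2 fold change 0.93 ± 0.05 SE, adjusted p = 2.65e-09). *fzy* rose from 73.0, 63.1 and 65.9 CPM to 167, 166 and 163 (2.45-fold, log2 fold change 1.29 ± 0.07 SE, adjusted p = 3.97e-09). After *stg*, *fzy* had the second largest rise among the members. In the ranking of all tested genes by log2 fold change, the 5 higher members stood at percentiles 71.5 to 83.0 and the 4 lower ones at percentiles 21.7 to 36.1, so that none was among the extremes of this comparison.

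The directions depend in part on the scaling, since scaling on library size alone moved the median log2 fold change of all genes by 0.64, scaling on upper quartiles by 0.30 and scaling on 85 ribosomal protein genes by -0.44. The rises of *stg*, *CycA*, *CycB*, *polo* and *fzy* and the falls of *bol* and *CycB3* held their direction and call under all of these scalings. On library size alone *twe* was at 0.06 (adjusted p = 0.284) and *rux* was called higher at 0.30, and on upper quartiles *rux* was not called (-0.04, adjusted p = 0.543), while *Cdk1* ranged from -0.37 with ribosomal protein genes to 0.70 with library size and was called in both and, as higher, on upper quartiles. Over all genes called, the share that was higher was 54.3% as fitted, 73.4% on library size, 64.5% on upper quartiles and 38.3% on ribosomal protein genes.

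**Figure D2:**
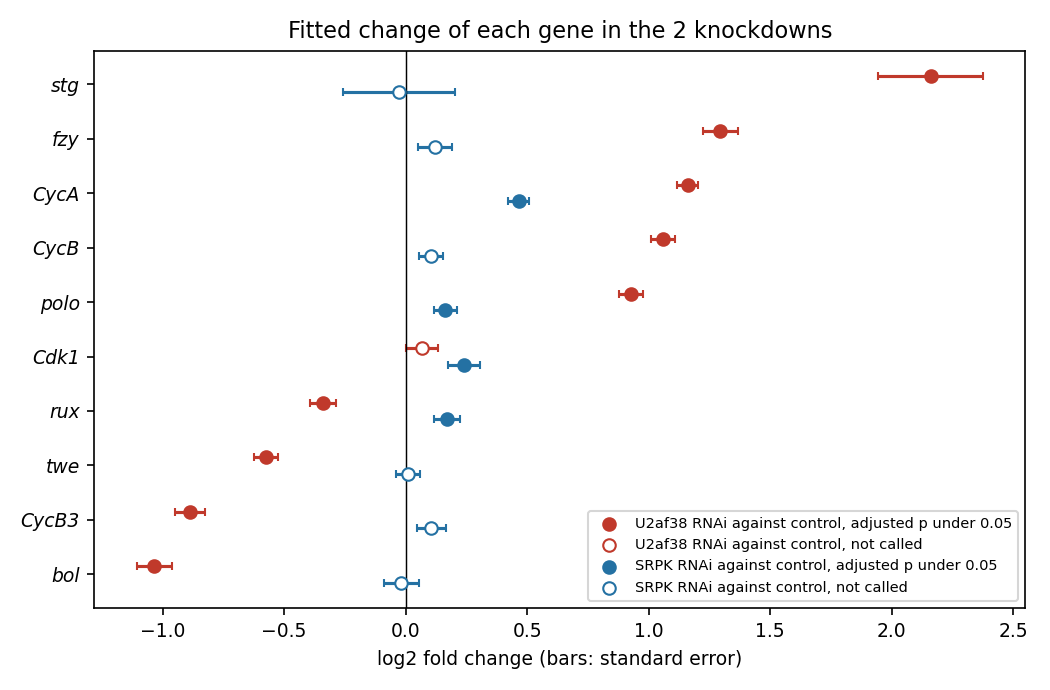
Fitted log2 fold change (horizontal axis) of each gene in *U2af38* RNAi (red) and *SRPK* RNAi (blue) against the shared control, with standard errors as bars. Filled points had an adjusted p under 0.05. The *U2af38* values spread from -1.03 (*bol*) to 2.16 (*stg*), and the *SRPK* values from -0.03 (*stg*) to 0.47 (*CycA*).

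*SRPK* RNAi was compared with control in the same way. *CycA* was the member that changed most, by 1.38-fold, and *Cdk1*, *polo* and *rux* were higher by 12% to 18%. No member was called lower, at an adjusted p or at an unadjusted p under 0.05 with edgeR, and DESeq2 gave 0 as well. In all 4 of the 10 members were called, beside 41.4% of all genes tested, of which 20.3% were called higher and 21.1% lower. The libraries did not overlap control for 5 members, beside 50.5% of all genes. The median absolute log2 fold change of the members was 0.11, beside 0.30 over all genes.

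*CycA* stood at 148, 145 and 148 CPM in the *SRPK* RNAi libraries, all above the control range of 103 to 108 (log2 fold change 0.47 ± 0.04 SE, adjusted p = 8.01e-06). This call held in all alternatives with more than 1 library per genotype, except the test against a minimum log2 fold change of 1. *Cdk1* was at 54.7, 51.7 and 48.2 CPM (log2 fold change 0.24 ± 0.07 SE, adjusted p = 0.0111). *polo* was at 291, 283 and 276 CPM (log2 fold change 0.16 ± 0.05 SE, adjusted p = 0.0176) and *rux* at 126, 129.9 and 130.0 (log2 fold change 0.17 ± 0.05 SE, adjusted p = 0.0234). The calls of *polo* and *rux* were lost without control replicate 1, where 2 members were left, and *rux* was also lost with DESeq2 and without control replicate 2 or *SRPK* RNAi replicate 2. Without *SRPK* RNAi replicate 3, on the other hand, *CycB3* and *fzy* were called as well, so that 6 members were. In the 4 libraries low in accessory gland RNA, a choice made after seeing the data, 2 members (*CycA* and *fzy*) were called higher in *SRPK* RNAi, while the *U2af38* RNAi count stayed at 5 higher and 4 lower.

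The other members were close to control in *SRPK* RNAi. *twe* was at 196, 188 and 192 CPM, within the control range (log2 fold change 0.01 ± 0.05 SE, adjusted p = 0.895), and *bol* at 1221, 1148 and 1288 CPM (log2 fold change -0.02 ± 0.07 SE, adjusted p = 0.865). *stg* was at 2.23, 1.51 and 1.49 CPM with a wide error (log2 fold change -0.03 ± 0.23 SE, adjusted p = 0.948). *CycB* had 3 libraries at 221, 215 and 211 CPM, which lay just above control without passing the test (log2 fold change 0.10 ± 0.05 SE, adjusted p = 0.114). *CycB3* ranged from 87.2 to 101 CPM (adjusted p = 0.185) and *fzy* from 65.9 to 79.7 CPM (adjusted p = 0.199), both overlapping control.

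The knockdowns were then set against each other, in the same model over all 9 libraries. All 10 members differed, 5 higher in *U2af38* RNAi (*stg*, *CycA*, *CycB*, *polo* and *fzy*) and 5 lower (*twe*, *bol*, *CycB3*, *rux* and *Cdk1*), and all 10 had libraries that did not overlap. In this comparison 79.9% of all genes were called, 42.3% higher and 37.6% lower, and 81.8% had libraries that did not overlap. The largest differences were in *stg* (log2 fold change 2.19 ± 0.21 SE, adjusted p = 1.11e-06) and *fzy* (1.17 ± 0.07 SE, adjusted p = 1.19e-08) on one side and in *bol* (-1.02 ± 0.07 SE, adjusted p = 6.11e-08) and *CycB3* (-0.99 ± 0.06 SE, adjusted p = 1.57e-08) on the other. *CycA*, which was higher in both knockdowns than in control, was a further 1.62-fold higher in *U2af38* RNAi than in *SRPK* RNAi (log2 fold change 0.69 ± 0.04 SE, adjusted p = 1.61e-08). *Cdk1* was 1.13-fold lower (log2 fold change -0.17 ± 0.06 SE, adjusted p = 0.0264), a call that 10 of the 22 alternatives did not give, DESeq2 and the omission of *SRPK* RNAi replicate 1 or *U2af38* RNAi replicate 3 among them, and that turned to a higher call of 0.34 on library size and 0.14 on upper quartiles.

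Because a ratio of 2 genes within a library does not depend on the scaling, 8 ratios of counts per kb of exon were formed between members that act together or oppose each other. The balance of the Cdc25 transcripts shifted most. The *twe*/*stg* ratio had log2 values of 7.05, 7.55 and 6.87 in control and 4.35, 4.39 and 4.37 in *U2af38* RNAi, a mean ratio of 142 against 20.7, or 6.89-fold lower. In *SRPK* RNAi the values were 6.82, 7.32 and 7.38, which overlapped control.

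Among the cyclins, the *CycB3*/*CycB* ratio was 3.85-fold lower in *U2af38* RNAi, with log2 values of -3.02, -3.11 and -3.06 against -1.13, -1.13 and -1.10 in control. The *CycB*/*CycA* ratio overlapped control, with log2 values of 0.79, 0.74 and 0.73 against 0.93, 0.78 and 0.86. In *SRPK* RNAi the same ratio was lower in all libraries, at 0.52, 0.51 and 0.45. The inhibitor-to-target ratio *rux*/*CycA* had log2 values of 1.12, 0.99 and 1.19 in control. They were -0.43, -0.39 and -0.37 after *U2af38* knockdown, and 0.77, 0.84 and 0.81 after *SRPK* knockdown. The ratio was thus lower in both knockdowns with no overlap, by 2.83-fold and 1.22-fold.

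Relative to the kinase subunit, *CycB*/*Cdk1* was 1.99-fold and *polo*/*Cdk1* 1.82-fold higher in *U2af38* RNAi than in control. The *bol*/*twe* ratio was 1.37-fold lower, with log2 values of 0.43, 0.37 and 0.57 against 0.86, 0.90 and 0.99. The *fzy*/*CycB* ratio was 1.18-fold higher, at -0.74, -0.74 and -0.71 against -0.88, -1.004 and -1.02. In total 7 of the 8 ratios did not overlap between *U2af38* RNAi and control, 2 between *SRPK* RNAi and control, and 8 between the knockdowns. Several ratios share a gene and so are not independent. Both ratios without overlap in *SRPK* RNAi, *CycB*/*CycA* and *rux*/*CycA*, hold *CycA*. Of all single genes tested, 84.7%, 50.5% and 81.8% did not overlap in these comparisons. Ratios of other gene pairs were not formed, so the counts are not read as particular to the members. Each ratio without overlap had an exact two-sided permutation p of 0.1, the smallest that 3 libraries against 3 can give, so that none could pass 0.05.

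**Figure D3:**
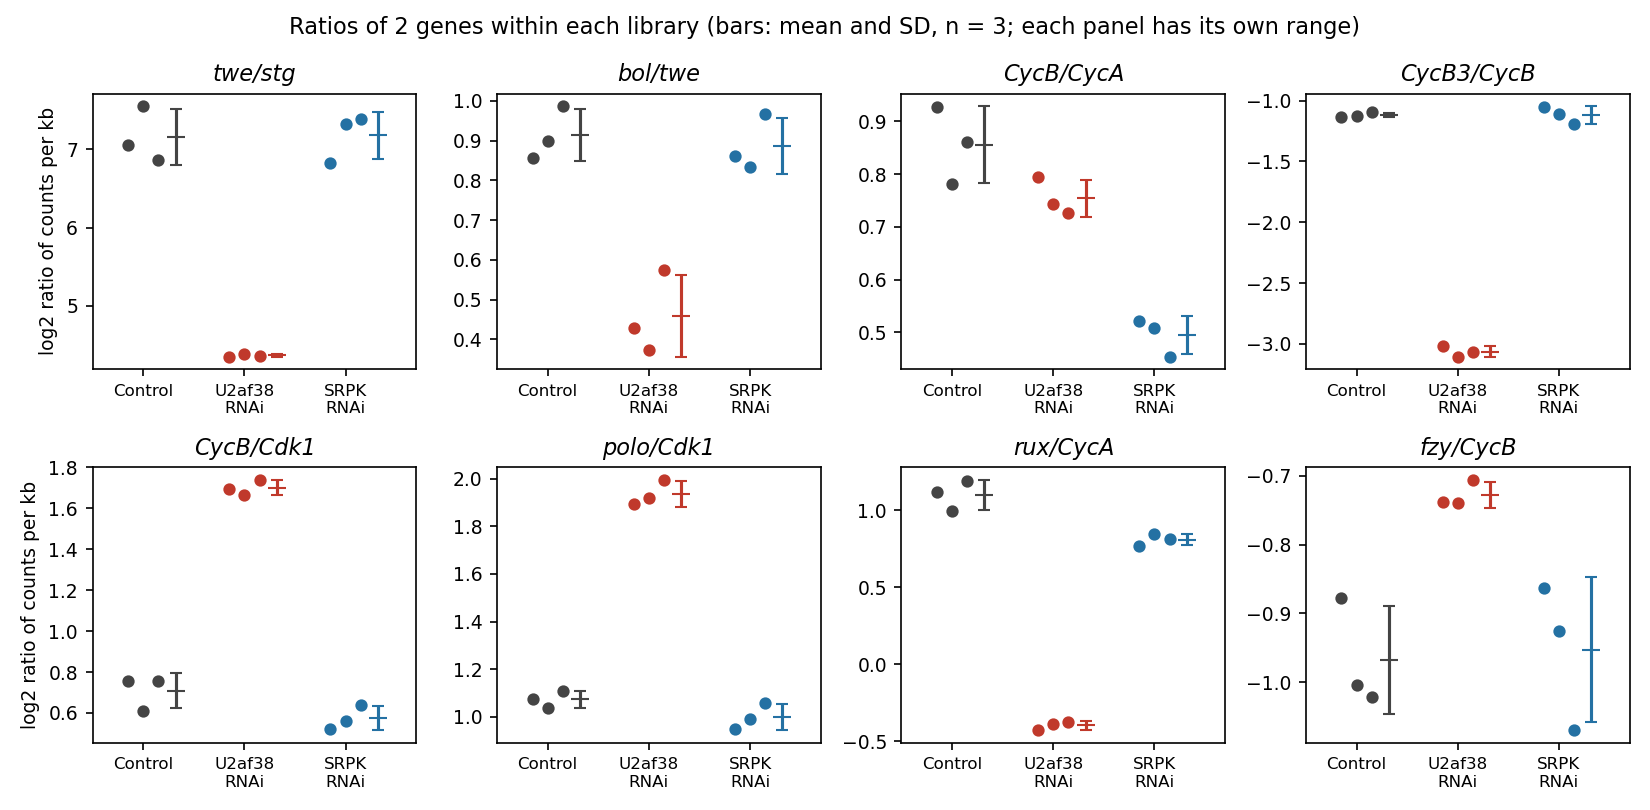
Log2 ratio of counts per kb of exon between 2 genes (vertical axis, its range set for each panel) in each library, with the mean and SD (n = 3). The *twe*/*stg*, *CycB3*/*CycB* and *rux*/*CycA* ratios lie lower in *U2af38* RNAi than in control and the *CycB*/*Cdk1* and *polo*/*Cdk1* ratios higher, without overlap. *CycB*/*CycA* overlaps there and lies apart in *SRPK* RNAi.

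The members were also ordered by level, as TMM-scaled CPM per kb of exon, which allows genes of different length to be compared. In control *bol* came first at 151 ± 11.3 (SD, n = 3), followed by *polo* at 84.9 ± 1.07, *twe* at 80.1 ± 2.25, *rux* at 78.1 ± 5.4 and *CycB* at 65.9 ± 2.16. *Cdk1* at 40.3 ± 1.06, *CycA* at 36.4 ± 0.89, *fzy* at 33.7 ± 2.57 and *CycB3* at 30.3 ± 1.2 formed a close lower group, and *stg* came last at 0.57 ± 0.14, 263-fold below *bol*. Of the 9 neighbouring pairs in this order 7 did not overlap, the exceptions being *twe* with *rux* and *CycA* with *fzy*.

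In *U2af38* RNAi the order of the levels per kb was different. *polo* came first at 161 ± 3.27 and *CycB* second at 137 ± 3.16, followed by *fzy* at 82.8 ± 0.83 and *CycA* at 81.3 ± 1.36, which overlapped. *bol* followed at 73.8 ± 3.57, ahead of *rux* at 61.7 ± 1.83, *twe* at 53.7 ± 2.57, *Cdk1* at 42.2 ± 1.99 and *CycB3* at 16.4 ± 0.65, and *stg* was last again at 2.60 ± 0.10. In *SRPK* RNAi the order kept *bol*, at 149 ± 8.62, and *polo*, at 95.1 ± 2.44, in front, and *stg* at the end at 0.57 ± 0.14. *CycA*, at 50.2 ± 0.61, stood there before *Cdk1*, at 47.6 ± 3.02, with overlap.

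**Figure D4:**
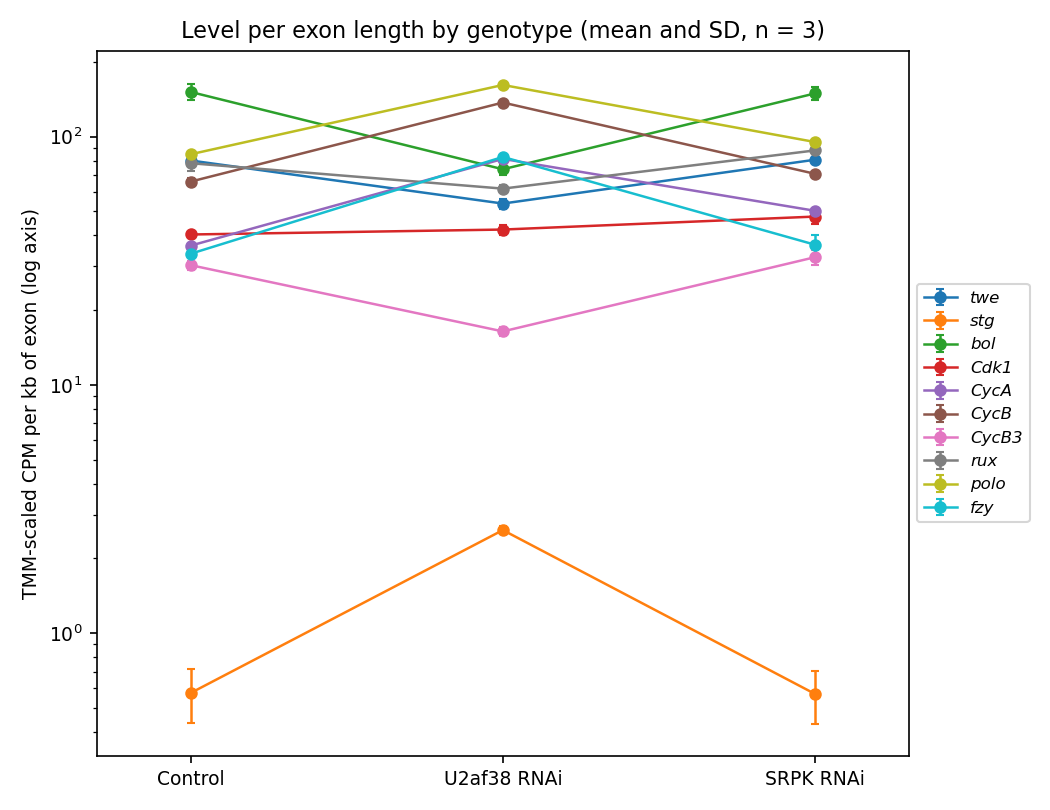
Mean level of the 10 genes in TMM-scaled CPM per kb of exon (vertical axis, logarithmic) in control, *U2af38* RNAi and *SRPK* RNAi, with SD (n = 3). *bol* leads in control (151) and *SRPK* RNAi (149), while *polo* (161) and *CycB* (137) lead in *U2af38* RNAi, and *stg* is last in each.

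Lists of genes that act with the members were counted beside them. Of 14 genes listed for the activation and inhibition of Cdk1, 10 were higher and 1 lower in *U2af38* RNAi, with a median log2 fold change of 0.66 beside 0.12 over all genes tested. With ribosomal protein genes as the scale these counts were 8 and 4. The lower one was the phosphatase gene *Cdc14*, which fell from 724 to 161 CPM (group means, log2 fold change -2.17 ± 0.09 SE, adjusted p = 2.8e-10). The most abundant others were *endos*, an inhibitor of the phosphatase PP2A, at 587 CPM in control and 602 in the knockdown (adjusted p = 0.587), and *Pp2A-29B*, a subunit of that phosphatase, which was higher by 0.52 on the log2 scale (adjusted p = 9.43e-07) but not on ribosomal protein genes. Of the kinases that place the phosphates which Twine and String remove, picked here after their values were seen, *Myt1* rose from 14.6 to 39.4 CPM (log2 fold change 1.43 ± 0.07 SE, adjusted p = 2.32e-09) and *Wee1* was at 164 and 153 CPM (adjusted p = 0.0585). In *SRPK* RNAi 6 of the 14 were higher and 0 lower, with a median of 0.12 beside 0.01 over all genes, and *Cdc14* was at 772 CPM (adjusted p = 0.422).

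For the anaphase-promoting complex, the ubiquitin ligase that Fizzy activates, 13 of 15 listed genes were tested. In *U2af38* RNAi 6 were higher and 6 lower (median -0.06), and these counts became 9 and 1 on library size and 4 and 8 on ribosomal protein genes. *cort*, a relative of *fzy* known from female meiosis, rose from 0.97 to 5.59 CPM (log2 fold change 2.53 ± 0.28 SE, adjusted p = 3.2e-06), and in *SRPK* RNAi it was at 2.54 CPM (log2 fold change 1.40, adjusted p = 0.00227). *APC7*, a subunit of the complex, was at 0.16 CPM in control, close to the floor of 3 fragments that equals 0.12 to 0.17 CPM there, and at 3.92 CPM in *U2af38* RNAi (adjusted p = 2.58e-06). Of the 3 most abundant, the *fzr* relative *fzr2* fell from 179 to 109 CPM (adjusted p = 2.91e-07, not called on library size), the conjugating enzyme gene *vih* from 325 to 267 CPM (adjusted p = 0.000619, with the direction turned on library size and upper quartiles), and the subunit gene *Cdc27* was at 254 and 243 CPM (adjusted p = 0.346). In *SRPK* RNAi 7 were higher and 1, *vih*, was lower (log2 fold change -0.36, adjusted p = 0.000439).

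Of the 15 genes of the spindle checkpoint and the chromosomal passenger complex, 8 were higher and 4 lower in *U2af38* RNAi (median 0.33), against 5 and 7 on ribosomal protein genes. *aurA*, the Aurora A kinase gene, rose from 102 to 245 CPM (log2 fold change 1.27 ± 0.05 SE, adjusted p = 2.83e-10) and the checkpoint kinase gene *Bub1* from 85.9 to 126 CPM (adjusted p = 4.27e-07, lost on ribosomal protein genes), while *Incenp*, the scaffold of the passenger complex, fell from 80.2 to 33.3 CPM (log2 fold change -1.27 ± 0.06 SE, adjusted p = 1.48e-09). In *SRPK* RNAi 12 of the 15 were higher and 0 lower, beside 20.3% and 21.1% of all genes. The list median was 0.34 beside 0.01 over all genes, and still 9 were higher on ribosomal protein genes. *aurA*, *Bub1* and *Incenp* were all among these 12, at log2 fold changes of 0.22, 0.25 and 0.39.

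The list of translational regulators was drawn up around genes that set when *CycB* and *twe* mRNA are read in spermatocytes. No such role is claimed here for every gene in it. *Pcf11* and *nonA-l*, for which none is claimed, were among the higher ones in *U2af38* RNAi (log2 fold changes 1.44 and 0.83). In *U2af38* RNAi 3 were higher and 5 lower of the 8 tested, with a median of -0.66 beside 0.12 over all genes, and on library size these were 4 and 4. As 82.2% of all genes were called in this comparison, the number called is near the background. Its most abundant genes were lower, as *bol* was: *Syp* fell from 2875 to 1158 CPM (log2 fold change -1.31 ± 0.07 SE, adjusted p = 4.01e-09), *fest*, the partner of Rbp4 in the repression of *CycB* translation, from 2226 to 1052 CPM (-1.08 ± 0.07 SE, adjusted p = 2.23e-08), and *eIF4G2*, a testis form of an initiation factor, from 2046 to 1523 CPM (-0.43 ± 0.10 SE, adjusted p = 0.00122, turned on library size). In *SRPK* RNAi *Syp* fell to 1771 CPM (log2 fold change -0.70 ± 0.07 SE, adjusted p = 1.55e-05), while *fest* (adjusted p = 0.0728) and *eIF4G2* (adjusted p = 0.697) were not called.

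**Figure D5:**
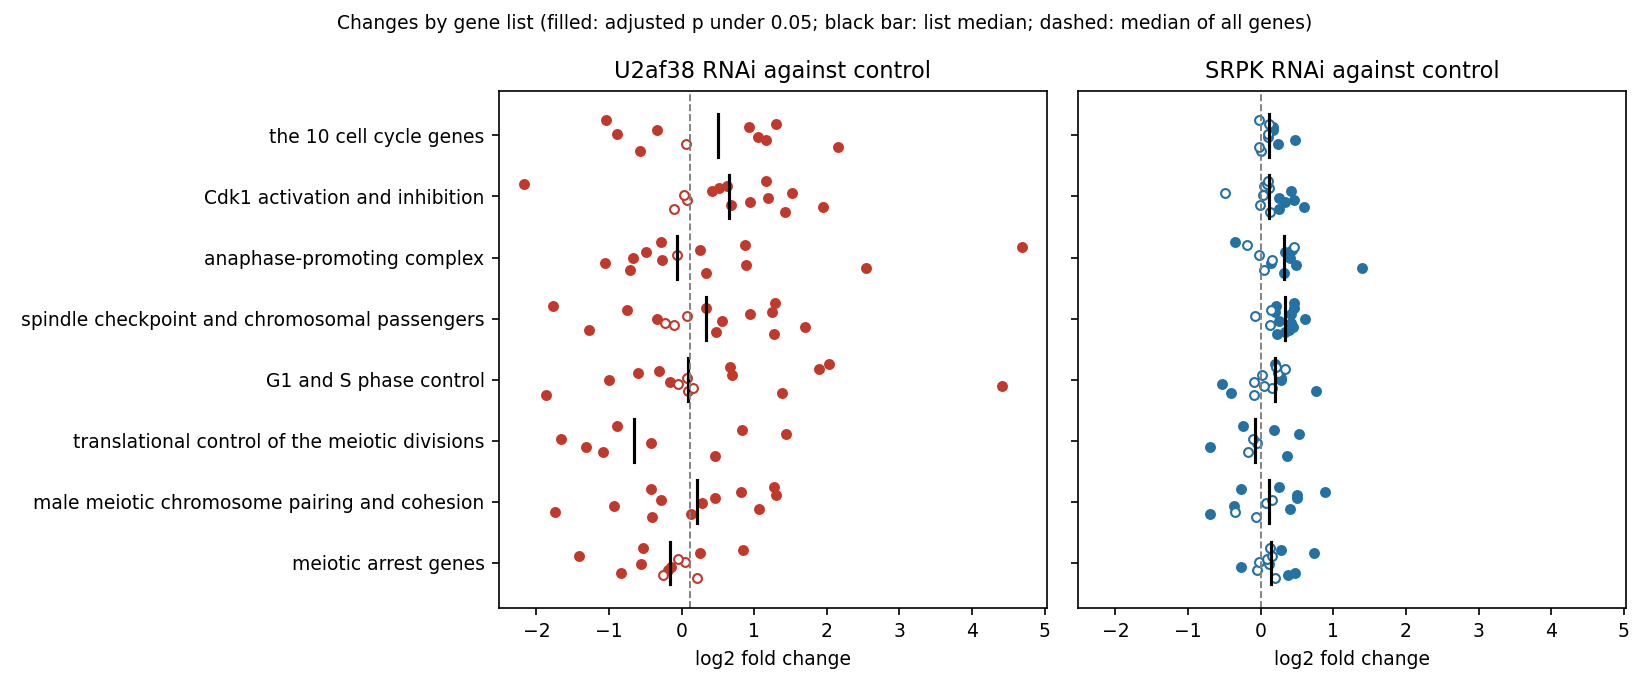
Log2 fold change (horizontal axis) of every tested gene of the 10 members and of 7 lists of related genes, in *U2af38* RNAi (left) and *SRPK* RNAi (right) against control. Filled points had an adjusted p under 0.05, black bars are list medians and the dashed line is the median of all genes tested (0.12 and 0.01). The Cdk1 list has the highest median in *U2af38* RNAi (0.66) and the translational list the lowest (-0.66).

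Markers of other stages and cell types were counted in the same fits. In *U2af38* RNAi 7 of the 8 spermatocyte markers and 8 of the 9 spermatid markers were lower, beside 4 higher and 2 lower of the 8 tested early germ cell markers, whose summed level was 578 to 627 CPM in control and 606 to 648 in the knockdown. Over all genes tested 44.7% were higher and 37.5% lower. On library size 5 spermatocyte and 5 spermatid markers were lower, with 2 higher in each list. The early germ cell counts became 6 higher and 2 lower on library size, and 2 and 3 on ribosomal protein genes. The hub and cyst cell markers summed to 304 to 315 CPM in control and 253 to 266 in *U2af38* RNAi, and the muscle sheath markers to 1417 to 2115 and 1343 to 1552. Their directions turned with the scale: hub and cyst cell markers had 2 higher and 5 lower as fitted but 5 and 2 on library size. Muscle sheath markers had 1 and 4 as fitted but 3 and 0 on library size. In *SRPK* RNAi, where the called members were higher, 5 of the 8 early germ cell markers were higher and 0 lower, with a median log2 fold change of 0.35 and a summed level of 670.2 to 734 CPM, above the control range. On ribosomal protein genes 2 of the 8 were higher and 0 lower. Over all genes tested 20.3% were higher and 21.1% lower in *SRPK* RNAi. The spermatocyte markers had 1 higher and 3 lower of 8, the spermatid markers 1 higher and 4 lower of 9, the hub and cyst cell markers 2 higher and 4 lower of 9, and the muscle markers 0 higher and 7 lower of 8. On library size the spermatocyte counts became 1 and 1. None of the tested markers was at 0 in all libraries. The study reports that germ cells of *U2af38* RNAi testes stop as spermatocytes before the meiotic divisions, and that spermiogenesis is absent there. It reports germ cells of normal appearance in *SRPK* RNAi, with sperm that do not move. The stages present thus differ between the knockdowns. The part of cell composition in the members' changes was not tested.

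The genes whose log2 CPM followed *twe* most closely over the 9 libraries, among the 9489 genes that averaged 5 CPM or more, were *hfw* (Pearson's r = 0.997), *CG2765* (0.996) and *CG3500* (0.996). Their log2 fold changes in *U2af38* RNAi against control were -1.32, -1.76 and -1.72, beside -0.58 for *twe*. For *bol* the closest were *Gnmt* (r = 0.999), *Apl* (0.998) and *CG33287* (0.998), at -1.40, -1.01 and -1.60 in *U2af38* RNAi. These values are a description, in which the 3 libraries of a genotype share their genotype, so that r largely compares the 3 *U2af38* RNAi libraries with the other 6.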

How the data were processed

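Per the labels and the methods of the study, total RNA of testes was made into ribosome-depleted libraries (KAPA RNA HyperPrep with RiboErase). The authors aligned reads with STAR 2.7.1a and made the deposited counts with featureCounts 1.6.2, as whole fragments over the exons of a gene in FlyBase annotation 6.37 with the reverse-strand setting. The table held 2 sequencing lanes for each of 9 libraries, which were summed here. No other columns of per-sample values were present, and no row lacked a gene.

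The counts were fitted with edgeR 4.0.16 (R 4.3.3) in one quasi-likelihood model of genotype over all 9 libraries, with TMM scaling, filterByExpr (14941 genes kept, all 10 members among them) and Benjamini-Hochberg adjustment over all genes tested at 0.05. Ratios within a library were compared by exact two-sided permutation tests in SciPy 1.17.1, on 8 pairs in 3 comparisons. The edgeR and DESeq2 fits were tested on simulated counts in which few genes were changed, as many up as down. That setting lacks the wide shift of *U2af38* RNAi and so does not test the scaling there. The floor was 3 fragments, and limits at this floor cover counting error only. Gene structures came from Ensembl release 115 (BDGP6.54), where the exons of the members are identical to those counted. Of 156 list entries 7 had no matching symbol and are not used here.

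The text names all members, both targeted genes, of each of the 7 lists of related genes (not of the marker lists, given as counts and summed levels) the 3 genes with the highest mean control CPM and any called with an absolute log2 fold change over 2, and for *twe* and *bol* the 3 genes of highest correlation with log2 CPM (prior count 2). Some spermatocyte markers, and *Pcf11* and *nonA-l*, were also named, after their values were seen. The members and lists were chosen with earlier results of these data known. Alternatives were DESeq2 1.42.0, other scalings, filters, lanes, sample choices, a replicate block and a minimum log2 fold change of 1.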

Additional observations from a re-analysis of the deposited data

How the results depend on the processing

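In *U2af38* RNAi against control, a test against a minimum log2 fold change of 1 left 3 members higher and 0 lower, and 6283 genes of all tested, and scaling on library size left 2 members lower. There *twe* was at 0.061 and *rux* at 0.30 (log2 fold changes, as all below), and *Cdk1* was at -0.37 on ribosomal protein genes and at -0.0057 in the 4 libraries low in accessory gland RNA. Those 4 libraries were 1 of control, 1 of *SRPK* RNAi and 2 of *U2af38* RNAi. Besides the scalings given above, *Cdk1* was also called with at least 10 counts in every library and in lane 2 alone. In *SRPK* RNAi the members called higher were 7 on library size, 2 on ribosomal protein genes and 2 in lane 1 alone. Against the minimum of 1 they were 0, where 440 genes of all tested were called. With libraries left out in turn they were from 2 (without control replicate 1) to 6 (without *SRPK* RNAi replicate 3). The share of higher calls over all genes there was 49.0% as fitted, 65.7% on library size and 36.6% on ribosomal protein genes, and between the knockdowns 52.9%, 72.3% and 38.1%, with 65.9% on upper quartiles.

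Members near 0 in *SRPK* RNAi changed sign without a call. *twe* was at -0.0159 with DESeq2, -0.0155 with RLE, -0.0034 on upper quartiles, -0.068 on ribosomal protein genes and -0.0111 in lane 2, and from -0.0055 to 0.039 with a library left out. *stg* was at 0.098 on library size, 0.26 in lane 2 and 0.76 in the 4 libraries, and from -0.25 to 0.17 with a library left out. *bol* was at 0.099 on library size and 0.0017 in the 4 libraries, and from -0.062 to 0.048 with a library left out. Between the knockdowns, members called lower numbered 2 on library size and 0 against the minimum of 1, where 2 were higher and 5502 genes of all tested were called. *Cdk1* was there at 0.34 on library size, 0.14 on upper quartiles and 0.0015 with at least 10 counts in every library, and *rux* at 0.0091 on library size. Apart from the shift of scale, the cause of these changes was not tested. Of the 9 neighbouring pairs in the control order, 6 to 8 did not overlap when a control library was left out.

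Replicate numbers were shared between genotypes, but same-numbered libraries did not deviate together in every pair (correlations of 0.29, 0.28 and -0.12 for *U2af38* RNAi with control, -0.40, -0.30 and 0.36 for *SRPK* RNAi with control, and -0.46, -0.19 and -0.17 between the knockdowns), so the numbers were not taken to pair the samples. With a replicate block the members called were the same in number, 5 higher and 4 lower, 4 and 0, and 5 and 5, and 12213, 6331 and 11881 genes of all tested were called. With *stg* at 23 to 224 counts per library, its error in *SRPK* RNAi (SE 0.23) is the widest of the members.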

Other observations

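Genes of G1 and S phase, which precede the spermatocyte's G2, did not move as a block in *U2af38* RNAi. Of 15, 6 were higher and 5 lower, with a median log2 fold change of 0.09 beside 0.12 over all genes tested, and on library size these were 12 and 2. Over all genes tested 44.7% were higher and 37.5% lower, shares that also stand beside the lists of the next paragraph. *Cdk4*, the kinase partner of Cyclin D, rose from 1.62 to 34.4 CPM (group means, log2 fold change 4.41 ± 0.12 SE, adjusted p = 1.18e-11 from edgeR's test), and *PCNA*, the sliding clamp of replication, from 17.9 to 73.0 CPM (2.03 ± 0.07 SE, adjusted p = 5.59e-11). *CycE*, which drives entry into S phase, fell from 63.8 to 17.6 CPM (-1.86 ± 0.06 SE, adjusted p = 2.68e-11) and the repressor gene *E2f2* from 66.8 to 33.5 CPM (-0.99 ± 0.05 SE, adjusted p = 3.74e-09), while the retinoblastoma gene *Rbf* rose from 74.4 to 120 CPM (0.69 ± 0.06 SE, adjusted p = 2.05e-07). These held their direction under every scaling tried. In *SRPK* RNAi 5 of the 15 were higher and 2 lower, beside 20.3% and 21.1% of all genes, and *Cdk4* was at 1.65 CPM (adjusted p = 0.872).

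Of 12 tested genes of chromosome pairing and cohesion, 7 were higher and 5 lower in *U2af38* RNAi (10 and 2 on library size, 3 and 7 on ribosomal protein genes). *uno* fell from 266 to 139 CPM (-0.93 ± 0.05 SE, adjusted p = 2.41e-09) and was at 206 CPM in *SRPK* RNAi (-0.37, adjusted p = 9.55e-05). *mei-S332*, which protects centromeric cohesion, was at 151 and 114 CPM (-0.40, adjusted p = 1.92e-05, turned on library size). The cohesion gene *ord* was at 143 CPM in control, 157 in *U2af38* RNAi (adjusted p = 0.0174, turned on ribosomal protein genes) and 88.7 in *SRPK* RNAi (-0.69 ± 0.05 SE, adjusted p = 6.81e-07). Of 12 tested meiotic arrest genes, which switch on the spermatocyte programme, 2 were higher and 6 lower in *U2af38* RNAi, against 8 and 1 on library size, so that no direction of this list is given. The bromodomain gene *tbrd-1* was at 197 and 137 CPM (-0.52, adjusted p = 6.27e-07) and turned to 0.11 on library size. The tandem copies *vis* (145 and 98.8 CPM) and *achi* (100.3 and 90.7 CPM) are near-identical, so that their separate counts are uncertain.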
